A study of Mus musculus with 6 samples.

Results

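Gas5, Snhg1, Snhg3, Snhg5, Snhg6, Snhg8, Snhg12 and Snhg15 are noncoding genes that carry small nucleolar RNAs (snoRNAs) in their introns. The 8 genes were found by gene name among the 54446 genes of the deposited files. In the GENCODE annotation 6 of them are typed as processed transcripts, and Snhg6 and Snhg12 as lincRNAs. The study asked what a static magnetic field (SMF) does to mouse CD8+ T cells, and RNA was sequenced in 6 libraries, 2 each of Unstimulated, Control and SMF cells. All cells came from spleens of C57BL/6 mice aged 8 weeks, by negative selection, which removes other cells with antibodies and keeps what is left. Unstimulated cells were fresh; Control and SMF cells were cultured for 72 h with antibodies to CD3 and CD28, SMF cells on permanent magnets of 0.3 T and Control cells without magnets. Nothing in the labels ties a library to a single mouse, so the p-values measure the spread between these libraries, which may be technical.

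A host gene of this kind is transcribed by RNA polymerase II, its introns are removed, and the snoRNAs are trimmed out of those introns and packed with proteins. Box C/D snoRNAs guide methylation of ribosomal RNA and box H/ACA snoRNAs guide the change of uridine to pseudouridine, while a few take part in cutting the precursor of ribosomal RNA. The spliced RNA that remains from a host such as Gas5 has short open reading frames and, in growing cells, is known to be broken down by nonsense-mediated decay; it is known to build up when growth stops. Many host genes begin with a run of pyrimidines (a 5′ terminal oligopyrimidine tract), as do messages of ribosomal proteins.

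The sequence around the start sites was searched for a pyrimidine run and for TATA letters. RefSeq promoter entries (build GRCm38.p6) were found for 7 members and none for Snhg6. Each line runs from 40 bases before the RefSeq start to 20 bases after it, on the transcribed strand. Capitals mark a pyrimidine run (a C followed by at least 4 bases that are each C or T, beginning within 5 bases of the start) and the letters TATAAA or TATATA lying 16 to 40 bases before the start.
Gas5, chr1:161035126-161035186, plus strand: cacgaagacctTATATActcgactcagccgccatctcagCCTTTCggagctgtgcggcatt
Snhg12, chr4:132308638-132308698, plus strand: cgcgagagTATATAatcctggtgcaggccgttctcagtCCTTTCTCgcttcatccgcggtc
Snhg8, chr3:123508316-123508376, minus strand: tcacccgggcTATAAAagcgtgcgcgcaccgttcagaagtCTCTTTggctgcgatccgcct
Snhg3, chr4:132353666-132353726, minus strand: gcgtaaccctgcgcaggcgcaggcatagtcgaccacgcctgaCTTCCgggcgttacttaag
Snhg5, chr9:88522877-88522937, minus strand: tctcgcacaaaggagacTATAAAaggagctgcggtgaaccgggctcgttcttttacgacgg
Snhg1, chr19:8723447-8723507, plus strand: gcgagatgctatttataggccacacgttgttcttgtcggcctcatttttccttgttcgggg
Snhg15, chr11:6528740-6528800, minus strand: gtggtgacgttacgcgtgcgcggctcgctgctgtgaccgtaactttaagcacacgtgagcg
The pyrimidine run was found in 4 of the 7, Gas5, Snhg12, Snhg8 and Snhg3, and in 16.1% of all 32851 promoter entries. The TATA letters were found in 4 of the 7, Gas5, Snhg12, Snhg8 and Snhg5, and in 2.73% of all entries. Snhg1 and Snhg15 had neither. Both motifs were looked for on the transcribed strand only, they do not overlap, and a match is a description of the letters. It also rests on the RefSeq start, which can differ from the start of an annotated transcript.

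Within the members lie 30 annotated snoRNA genes on the same strand, 10 in Gas5, 8 in Snhg1, 5 in Snhg12, 2 each in Snhg3 and Snhg5, and 1 each in Snhg6, Snhg8 and Snhg15. Snord80 and Snora16a each have a pair of overlapping entries among the 30. Sequences from the GENCODE M21 transcripts are shown for the snoRNA with the highest mean FPKM in each of Gas5, Snhg1 and Snhg3. Capitals mark the C box letters TGATGA within the first 15 bases together with the D box letters CTGA within the last 12, or else the letters ACA that stand 3 bases before the end.
Gm22357 in Gas5, chr1:161036057-161036139, plus strand: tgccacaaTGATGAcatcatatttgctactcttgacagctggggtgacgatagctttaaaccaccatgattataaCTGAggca
Gm22680 in Snhg1, chr19:8725341-8725409, plus strand: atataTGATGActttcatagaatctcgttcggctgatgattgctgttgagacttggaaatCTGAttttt
Snora73b in Snhg3, chr4:132352322-132352526, minus strand: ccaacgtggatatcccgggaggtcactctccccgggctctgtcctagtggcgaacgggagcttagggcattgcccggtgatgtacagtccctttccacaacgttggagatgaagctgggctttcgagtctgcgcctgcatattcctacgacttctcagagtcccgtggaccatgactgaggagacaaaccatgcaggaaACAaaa
Both boxes C and D were found in 14 of the 30 and the ACA letters in 7 others, against 19.4% and 18.3% of the 1507 snoRNA transcripts of the annotation. The 18.3% counts ACA with or without boxes C and D, so it is not the same measure as the 7. Both Snord80 entries are among the 14 and both Snora16a entries among the 7. All 7 lay in Snhg3, Snhg8, Snhg12 and Snhg15. None of the 18 in Gas5 and Snhg1 had ACA without boxes C and D. Snora73b and its neighbour in Snhg3, Snora73a, differ at 7 of 205 bases, and Snord50a and Snord50b in Snhg5 differ at 1 of 72, so reads of either pair could be split between copies.

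Levels were given as gene FPKM, fragments scaled for transcript length and library size, summed over the transcripts of a gene, which allows genes to be set side by side. Coverage summed to 67.4 and 132 Mb in Unstimulated, 64.4 and 172 Mb in Control and 259 and 227 Mb in SMF, so SMF was deepest, and replicate 1 of the other groups shallowest. Protein-coding genes took 49.1% to 50.5% of all FPKM in the Unstimulated and Control libraries and 68.7% to 69.2% in the SMF libraries. Folder names in the file headers carry a date: June 2017 for replicate 1 of Unstimulated and Control, November 2017 for replicate 2 of both, and October 2018 for both SMF libraries. No date holds an SMF library together with another group, so the field and whatever differed between dates cannot be told apart. The spread between replicates holds a difference in date for Unstimulated and Control but not for SMF. The p-values rest on the spread of all groups pooled. All 8 CD8 T cell markers were listed above 0 in every library. They summed to 915 and 1031 FPKM in Unstimulated, 553 and 747 in Control, and 1150 and 1126 in SMF, without overlap between groups. Single markers were unlike: Cd8a was 35.5 and 60.0 FPKM in Control and 192 and 186 in SMF. Cd8b1 was 50.3 and 123 in Control and 94.6 and 91.9 in SMF. Cd79a, a B cell receptor subunit, was 57.2 and 44.8 FPKM in Unstimulated, 13.4 and 6.96 in Control and 1.85 and 2.43 in SMF. All myeloid markers but S100a8 were found by name. They summed to 131 and 151 FPKM in Unstimulated, 47.0 and 53.8 in Control and 41.1 and 50.5 in SMF. In Control the whole sum was Csf1r, and in SMF all but Itgam at 0.18 FPKM in replicate 2. Lyz2 was 42.4 and 74.0 FPKM in Unstimulated and 0 in the stimulated libraries. Csf1r was 63.9 to 68.5 FPKM before and 41.1 to 53.8 after stimulation. Marker levels differed between fresh and stimulated cells, and the CD8 T cell sum also between Control and SMF. Their part in the results was not tested. In bulk RNA, fewer cells of a type and less RNA per cell cannot be told apart.

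The members together took a larger share of all FPKM after stimulation, from 0.0506% and 0.0451% in Unstimulated to 0.0934% and 0.0667% in Control and 0.147% and 0.148% in SMF. The 3 groups did not overlap in this share. Protein-coding genes also took a larger part of all FPKM in SMF, as given above, and what this did to the members' share was not tested. Gas5, whose spliced RNA is named for its build-up in growth arrest, had the highest FPKM of the 8 in each group. In Unstimulated the order by mean went on with Snhg8, Snhg1, Snhg15, Snhg5, Snhg12, Snhg6 and Snhg3, and the libraries of 1 of the 7 neighbouring pairs, Snhg8 and Snhg1, overlapped. In Control, Snhg5 stood second, and 5 of 7 neighbouring pairs overlapped. In SMF the order was Gas5, Snhg8, Snhg1, Snhg15, Snhg5, Snhg3, Snhg12 and Snhg6, with 3 overlapping pairs, Snhg8 and Snhg1, Snhg3 and Snhg12, and Snhg12 and Snhg6.

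**Figure D1:**
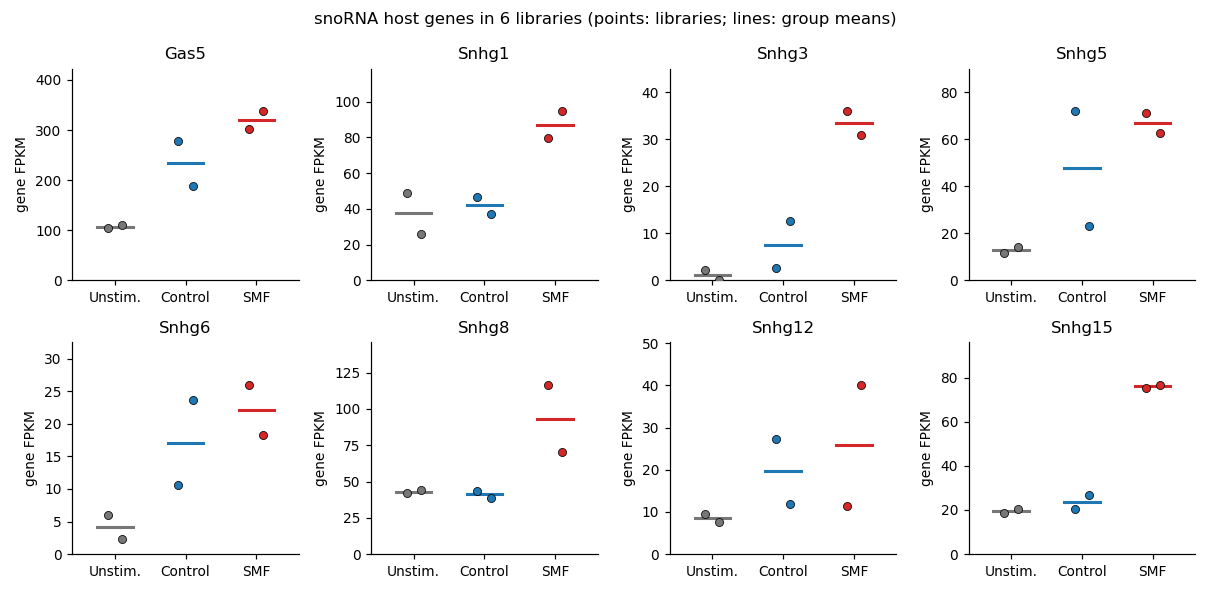
Gene FPKM (linear axis from 0, a separate scale for each gene) of the 8 members in the Unstimulated, Control and SMF groups; points are libraries and lines are means of 2. All 8 members were higher in both SMF libraries than in both Unstimulated libraries, while Snhg5, Snhg6 and Snhg12 overlapped between SMF and Control.

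The first comparison sets cells stimulated in culture for 72 h without magnets against fresh cells. No unstimulated library was cultured, so stimulation and culture cannot be told apart. In Control against Unstimulated, 3 of the 8 members were higher by the thresholds the study names: Gas5, Snhg5 and Snhg6. A gene was called where the fold on log2(FPKM + 1) reached 2 and its limma p before adjustment did not exceed 0.05. Among all 14991 genes tested, 12.3% were called higher. For 5 members, all higher in Control, there was no overlap between the libraries of both groups, against 24.8% of all genes. No member had a Benjamini-Hochberg adjusted p under 0.05 in limma, against 4.52% of all genes that were higher at that level; unadjusted, 3 members were under 0.05. The median log2 fold change was 1.05 over the members and -0.05 over all genes tested. Among the 1911 long noncoding genes tested, members included, the median was -0.40 and 11.04% were called higher.

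Gas5 was 104.5 and 110 FPKM in Unstimulated, 278 and 189 in Control, and 303 and 338 in SMF. The 3 groups did not overlap, and the Unstimulated libraries lay within 1.05-fold of each other. Control exceeded Unstimulated by 1.09 on the log2 scale (SE 0.26, n = 2 libraries each; limma, Benjamini-Hochberg adjusted p = 0.0570), and was higher by 1.40 in the June 2017 libraries and by 0.77 in the November 2017 ones. The call held in 17 of 20 alternatives; without Control replicate 1 (0.81), with gene TPM (0.95) and at an equal protein-coding sum (0.94) the log2 fold change was under the fold threshold.

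Snhg5, the host of Snord50a and Snord50b, was 11.7 and 14.0 FPKM in Unstimulated, 71.997 and 23.2 in Control, and 71.2 and 62.4 in SMF. Both Unstimulated libraries were below all others, and the Control libraries were 3.11-fold apart, with the SMF libraries between them. Its log2 fold change in Control was 1.61 (SE 0.54; limma, Benjamini-Hochberg adjusted p = 0.121), or 2.53 in the June 2017 libraries and 0.69 in the November 2017 ones. The call was kept with 1 of the 6 libraries left out in turn and lost with the other 5. Without Control replicate 1 the log2 fold change was 0.81, while without Unstimulated replicate 1 (1.49), Unstimulated replicate 2 (1.73), SMF replicate 1 (1.61) or SMF replicate 2 (1.61) it was the p that missed the threshold.

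Snhg6, the host of Snord87, was 5.94 and 2.34 FPKM in Unstimulated, 10.7 and 23.6 in Control, and 26.0 and 18.2 in SMF. Unstimulated was below the other 2 groups, and Control and SMF overlapped. The log2 fold change in Control was 1.81 (SE 0.57; limma, Benjamini-Hochberg adjusted p = 0.106), and 0.75 and 2.88 within the 2 dates. It was not called without Unstimulated replicate 2 (1.29), Control replicate 2 (1.28) or SMF replicate 1 (1.81).

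Snhg12, which carries H/ACA snoRNAs and Snord99, was 9.47 and 7.72 FPKM in Unstimulated, 27.4 and 11.97 in Control, and 11.4 and 40.1 in SMF. Unstimulated lay below both other groups, but the SMF libraries were 3.51-fold apart and spanned the Control libraries. The log2 fold change of Control against Unstimulated was 1.01 (SE 0.68; limma, Benjamini-Hochberg adjusted p = 0.394), which was not called.

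Snhg3, the host of Snora73a and Snora73b, was 2.16 and 0 FPKM in Unstimulated, 2.53 and 12.6 in Control, and 36.0 and 31.0 in SMF. The groups did not overlap, though Control replicate 1 was close to Unstimulated replicate 1. Its log2 fold change in Control was 1.96 (SE 0.83; limma, Benjamini-Hochberg adjusted p = 0.198), not called, and 0.16 and 3.76 within the 2 dates. It was called without Control replicate 1 (2.93), at one median for every library (2.05) and under quantile normalization (2.10).

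Snhg1, Snhg8 and Snhg15 differed little between Control and Unstimulated. Snhg1, which holds 8 snoRNA genes, was 48.8 and 26.1 FPKM in Unstimulated, 46.7 and 37.2 in Control, and 79.4 and 94.8 in SMF. Snhg8, the host of Snora24, was 42.0 and 44.0 in Unstimulated, 43.5 and 38.9 in Control, and 117 and 70.0 in SMF. Snhg15, the host of Snora9, was 18.6 and 20.7 in Unstimulated, 20.6 and 26.6 in Control, and 75.3 and 76.7 in SMF. For all 3 genes Unstimulated and Control overlapped and both SMF libraries were above the other 4. The log2 differences of Control from Unstimulated were 0.22 for Snhg1 (95% interval -0.69 to 1.13), -0.06 for Snhg8 (-0.86 to 0.73) and 0.25 for Snhg15 (-0.48 to 0.97), so a rise to a fold of 2, a log2 change of 1, was outside the interval for Snhg8 and Snhg15 and inside it for Snhg1.

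The second comparison asks what the field added to stimulation, with the reserve on dates given above. In SMF against Control all 8 members had a positive log2 fold change, and 4 were called higher, Snhg15, Snhg8, Snhg1 and Snhg3; 12.5% of all genes were. Libraries did not overlap for 5 members, the same 4 and Gas5, against 37.4% of all genes. No member had a Benjamini-Hochberg adjusted p under 0.05 in limma, and among all genes 0.0200% were higher at that level; unadjusted, 4 members were under 0.05. The members' median log2 fold change was 0.86 and that of all genes 0.32. Over the 1911 long noncoding genes the median was -0.60, with 2.30% called higher. Protein-coding genes took 49.1% and 50.5% of FPKM in Control and 69.2% and 68.7% in SMF. The part of that shift in the noncoding median was not tested. Scaling all libraries to an equal sum of protein-coding FPKM moved the median of all genes from 0.32 to 0.06, and then 1 member, Snhg15, was called; the same count of 1 was given by setting every library to the same median and by quantile normalization. Under these 3 rescalings the log2 fold change of Snhg3 stayed between 1.89 and 2.003 and missed the p, while Snhg1 was 0.70 to 0.88 and Snhg8 0.78 to 0.95, under the fold threshold.

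The rise of Snhg15 was 1.66 on the log2 scale (SE 0.30, n = 2 libraries each; limma, Benjamini-Hochberg adjusted p = 0.136), a fold of 3.15. It was called in all 20 alternatives tried, between 1.32 and 2.02. Snhg8 exceeded Control by 1.12 (SE 0.33; limma, Benjamini-Hochberg adjusted p = 0.170) and was called in 15 of the 20; it was not called without Control replicate 2 (1.04) or SMF replicate 1 (0.75). Snhg1 exceeded it by 1.04 (SE 0.37; limma, Benjamini-Hochberg adjusted p = 0.206) and was called in 11 of the 20, and leaving out Control replicate 1 (1.20), Control replicate 2 (0.88), SMF replicate 1 (1.17) or SMF replicate 2 (0.91) ended the call. Snhg3 exceeded it by 2.31 (SE 0.83; limma, Benjamini-Hochberg adjusted p = 0.206) and was called in 9 of the 20. Of the 6 fits with 1 library left out, the call on Snhg3 was kept in 1, without Control replicate 2; it was lost without Control replicate 1 (1.34), SMF replicate 1 (2.21) or SMF replicate 2 (2.42), and without either Unstimulated library (2.31).

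The other 4 members were not called. Gas5 differed by 0.48 (95% interval -0.15 to 1.11), Snhg5 by 0.69 (-0.62 to 1.99), Snhg6 by 0.43 (-0.96 to 1.82) and Snhg12 by 0.24 (-1.40 to 1.88). All of these intervals include a fold of 2, so changes of that size could not be told from none. Without Control replicate 1, the higher of its Control libraries, Snhg5 was called, at 1.49.

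SMF against Unstimulated sets field-exposed stimulated cells against fresh cells. It shares its libraries with the comparisons above, and the dates and the time in culture differ here too. All 8 members were higher with no overlap of libraries, against 39.7% of all genes. All but Snhg12 were called, 7 of 8, against 22.4% of all genes. With limma and Benjamini-Hochberg adjustment 5 members, Gas5, Snhg3, Snhg5, Snhg6 and Snhg15, were under 0.05, against 14.2% of all genes in that direction. The median of the 8 log2 fold changes was 1.74. For every gene tested it was 0.27 and for long noncoding genes -1.08, with the same reserve on the protein-coding share.

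The values ran from 1.05 for Snhg8 to 4.27 for Snhg3, the latter against a group with 1 library at 0 and from 2.68 to 6.14 with the pseudocount at 5 or at 0.1. Gas5 rose by 1.57 (SE 0.26; limma, Benjamini-Hochberg adjusted p = 0.0123) and Snhg15 by 1.90 (SE 0.30; limma, Benjamini-Hochberg adjusted p = 0.0104). Gas5, Snhg3 and Snhg15 were called in all 20 alternatives. Without Unstimulated replicate 2 only these 3 members were called; Snhg1 (0.82), Snhg5 (2.42), Snhg6 (1.71) and Snhg8 (1.09) were not. Calls were also lost without Unstimulated replicate 1 for Snhg5 (2.17) and Snhg8 (1.02), without SMF replicate 1 for Snhg1 (1.38), Snhg6 (1.998) and Snhg8 (0.69), and without SMF replicate 2 for Snhg1 (1.13); without SMF replicate 1 Snhg12 was called, at 2.11. Snhg8 was not called under any of the 3 rescalings (0.58 to 0.89) or with a pseudocount of 5 (0.99), nor Snhg1 at an equal protein-coding sum (0.78), which left 5 or 6 members called under rescaling. Without retained-intron transcripts neither Snhg1 (1.01) nor Snhg5 (0.33) was.

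**Figure D2:**
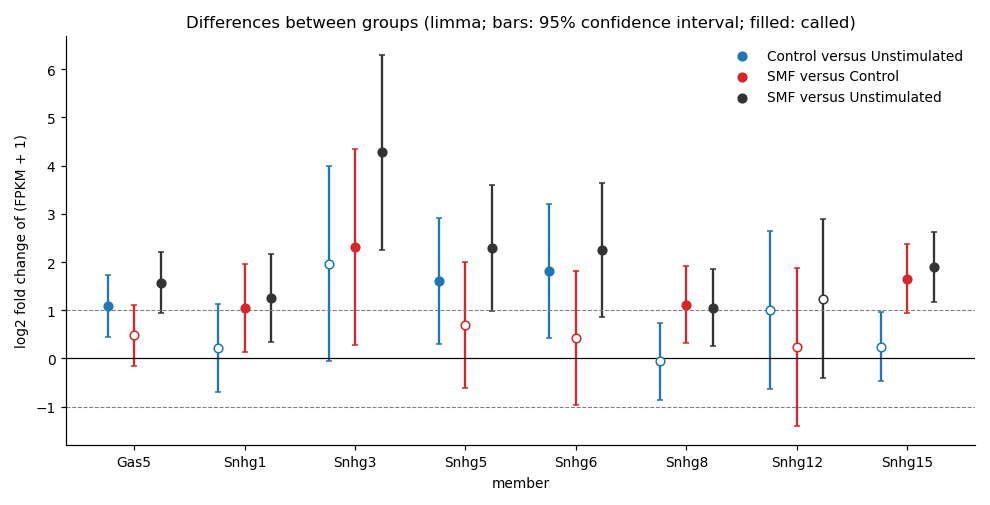
Log2 fold change of (FPKM + 1) for each member in the 3 comparisons, with 95% confidence intervals from limma; filled points are called (fold of 2 or more, limma p of 0.05 or less before adjustment) and dashed lines mark a fold of 2. Snhg15, Snhg8 and Snhg1 lie near 0 in Control versus Unstimulated and above 1 in SMF versus Control, whereas Gas5, Snhg5 and Snhg6 are called in the first and not in the second.

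Because the snoRNAs lie in introns, a transcript whose exons hold a whole snoRNA is not the fully spliced host. Such transcripts, 39 of the 76 annotated for the members, took 45.8% and 38.7% of the members' FPKM in Unstimulated, 23.3% and 23.7% in Control, and 19.8% and 24.1% in SMF. Unstimulated was above both stimulated groups, which overlapped. An intron-keeping host RNA and a mature snoRNA cannot be told apart over the snoRNA's own bases, and 2 libraries against 2 are too few for an exact test to reach 0.05.

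In Gas5 the share was 60.8% and 44.7% in Unstimulated, 18.0% and 33.1% in Control, and 22.5% and 25.9% in SMF. Gas5-221, a retained-intron form, touches a snoRNA without holding it whole and is not in this share. It was 65.2 and 27.7 FPKM in SMF and at most 4.83 elsewhere, and led in SMF replicate 1. Transcripts annotated as retained introns were 76.7% and 61.2% of Gas5 in Unstimulated, 37.2% and 53.1% in Control, and 56.2% and 42.4% in SMF. The spliced transcripts Gas5-210 and Gas5-224 were higher after stimulation. Gas5-210 was 9.55 and 9.001 FPKM in Unstimulated, 103 and 45.0 in Control, and 60.7 and 102 in SMF. Gas5-224 was 9.56 and 30.6, 54.5 and 35.9, and 61.2 and 82.3 FPKM in the same order. Neither transcript overlapped between Unstimulated and the stimulated groups. With snoRNA-holding transcripts left out, the log2 fold change of Gas5 in Control against Unstimulated was 1.74 in place of 1.09.

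In Snhg1 the share was 64.8% and 71.3% in Unstimulated, 65.7% and 36.7% in Control, and 45.9% and 37.7% in SMF. Control overlapped both other groups. Transcripts annotated as retained introns held 81.5% to 92.0% of Snhg1 in every library. The transcripts with the highest mean FPKM over the 6 libraries, Snhg1-212 and Snhg1-206, are annotated as retained introns. They did not lead everywhere: Snhg1-210 led in Unstimulated replicate 1, Snhg1-207 in Unstimulated replicate 2 and Snhg1-218 in Control replicate 1. Snhg1-212 was 3.82 and 0.91 FPKM in Unstimulated, 1.96 and 6.58 in Control, and 16.9 and 31.3 in SMF, which stood apart. Snhg1-206 was 4.49 and 1.74, 6.11 and 9.81, and 9.16 and 9.20 FPKM.

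Snhg12 was listed wholly in snoRNA-holding transcripts in both Unstimulated libraries and in SMF replicate 1. The spliced Snhg12-206 was 0 in those 3 libraries, 20.01 and 8.81 FPKM in Control, and 20.5 in SMF replicate 2. The unlike SMF libraries of the gene thus also differed in transcript. Snhg12-210 and Snhg12-208, which hold snoRNAs, ranged from 0.34 to 8.97 and from 0.06 to 5.99 FPKM. Leaving such transcripts out gave Snhg12 a log2 fold change of 3.84 in Control against Unstimulated, past the call, and of -1.63 in SMF against Control, not called.

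**Figure D3:**
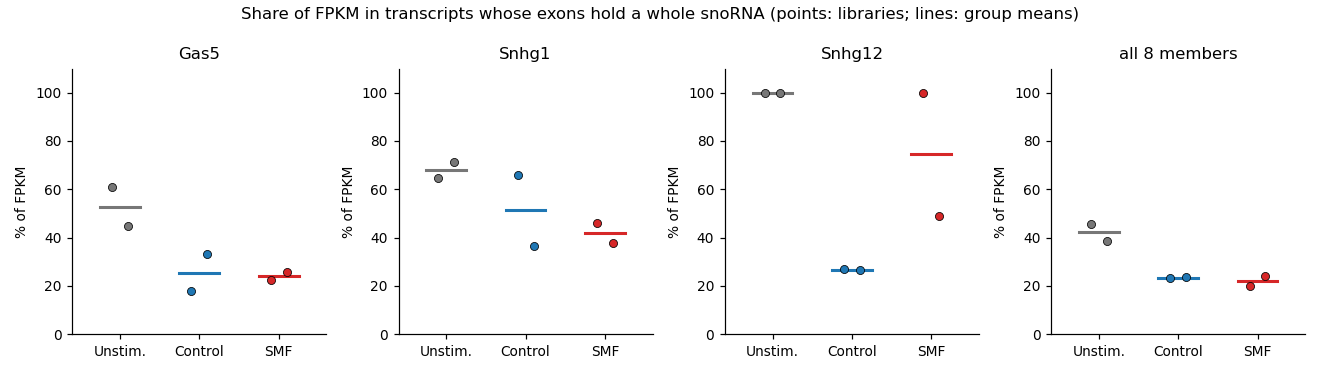
Percent of FPKM in transcripts whose exons hold a whole annotated snoRNA, for Gas5, Snhg1, Snhg12 and the 8 members summed (axis from 0); points are libraries and lines are means of 2. For the 8 members summed, Unstimulated lies at 38.7% and 45.8% and the 4 stimulated libraries between 19.8% and 24.1%.

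Snhg8 was listed with another leading transcript in the SMF libraries, which also carry another date. The split of a gene between its transcripts is the authors' estimate and could not be checked without reads. It could be unlike between replicates, as for Snhg12-206, at 0 and 20.5 FPKM in SMF. Snhg8-201, with 3 exons, was 0 and 0.08 FPKM in Unstimulated, 0 and 0.66 in Control, and 56.6 and 51.1 in SMF. Snhg8-203, with 2 exons, was 37.3 and 35.1, 32.5 and 35.3, and 49.7 and 16.8 FPKM in the same order. Both SMF libraries thus held Snhg8-201 far above the other 4, while Snhg8-203 was highest in one SMF library and lowest in the other. The intron-keeping Snhg8-202, which holds Snora24, stayed between 2.08 and 11.01 FPKM.

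Snhg15-201, a spliced form of 3 exons, held 73.0% of the mean FPKM of Snhg15 over the 6 libraries, but 18.4% in Unstimulated replicate 1. This transcript was 3.42 and 12.6 FPKM in Unstimulated, 7.20 and 23.3 in Control, and 67.2 and 60.3 in SMF. SMF was above all others by a wide margin, and the 2 Control libraries were 34.9% and 87.8% Snhg15-201. Snhg15-204 led in Unstimulated replicate 1 alone, at 12.4 FPKM, and was 0.51 to 7.45 FPKM elsewhere. In Control replicate 1 the leading form was Snhg15-203, which holds a whole snoRNA, at 8.49 FPKM.

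Snhg5 kept a like gene level in Control replicate 1 and SMF but in other transcripts. The lincRNA form Snhg5-201 was 7.91 and 1.51 FPKM in Unstimulated, 46.0 and 19.6 in Control, and 10.4 and 1.75 in SMF. The retained-intron form Snhg5-206 was 3.77 and 4.32, 16.8 and 2.44, and 46.2 and 28.6 FPKM, and Snhg5-204, which holds a whole snoRNA, was 0 and 1.76, 9.14 and 0, and 13.3 and 24.8. Transcripts annotated as retained introns were 32.3% and 50.4% of Snhg5 in Unstimulated, 36.1% and 15.3% in Control, and 85.3% and 85.9% in SMF. Other genes with such a transcript had 31.0% and 29.2% in Unstimulated, 27.7% and 25.4% in Control, and 20.2% and 21.02% in SMF. With retained-intron transcripts left out, an alternative chosen after seeing the data, Snhg5 was lower in SMF than in Control by a log2 fold change of -1.56, past both thresholds of the call and the reverse of its gene-level difference of 0.69.

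Snhg6 has no transcript annotated as a retained intron and none that holds its snoRNA. Snhg6-202 was its only transcript above 0 in Unstimulated replicate 1, at 5.94 FPKM, and was 0 to 7.13 FPKM in the rest. Snhg6-203, Snhg6-204 and Snhg6-205 were each at 0 in Unstimulated replicate 1 and between 1.93 and 9.89 FPKM in Control replicate 2 and SMF. The 2 Control libraries were unlike: Snhg6-202 led in replicate 1, and the other 3 transcripts in replicate 2.

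**Figure D4:**
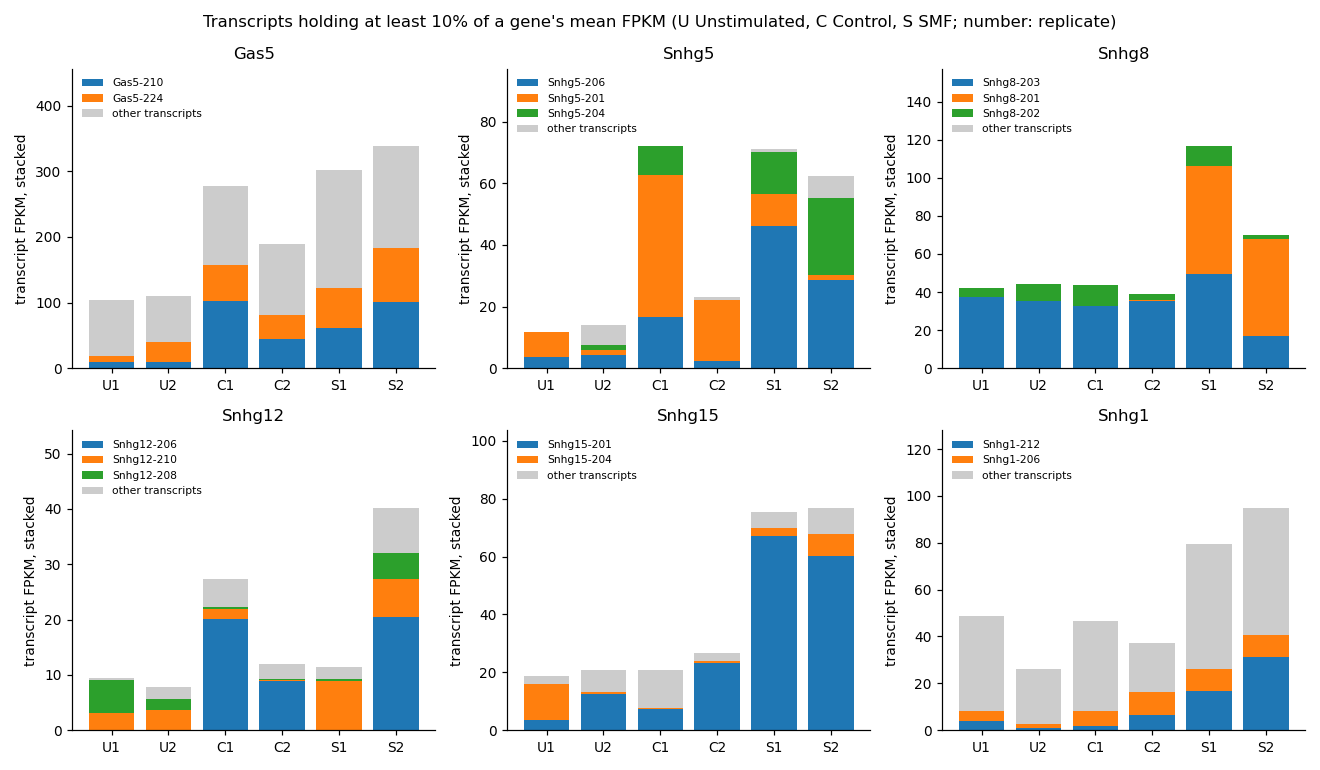
Transcript FPKM stacked by library (U Unstimulated, C Control, S SMF, with the replicate number; axes from 0) for 6 members; coloured parts are transcripts with at least 10% of the gene's mean FPKM. Snhg8-201 appears at 56.6 and 51.1 FPKM in the SMF libraries and is at most 0.66 FPKM elsewhere. Snhg5 is listed mainly as Snhg5-201 in Control and as Snhg5-206 and Snhg5-204 in SMF, whose date differs.

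Snhg3 shares its place with other genes. Gm17300, a lincRNA on the opposite strand, covers 71.5% of the exonic bases of Snhg3, and Rcc1, a protein-coding gene for a nucleotide exchange factor of Ran, covers 13.7% on the same strand. Gm17300 was 244 and 156 FPKM in Unstimulated, 639 and 381 in Control, and 663 and 636 in SMF. Rcc1 was 1.304 and 1.71, 18.7 and 15.01, and 32.4 and 43.9 FPKM. All 3 genes were higher in both stimulated groups than in Unstimulated. Gm17300 was above Snhg3 in every library, and the split of reads between the strands rests on the strand setting of the authors' run. The transcripts of Snhg3 were unlike between libraries. Snhg3-202 was at most 1.87 FPKM outside SMF and 23.9 and 10.1 in SMF, Snhg3-203 was 0 to 9.88 FPKM, and Snhg3-201 was 0 to 6.05. Snhg3-202 begins inside Snora73a, so its exons cover part of that snoRNA. It held 0% and 14.8% of Snhg3 FPKM in Control and 66.3% and 32.6% in SMF. The part of Snora73a reads in the level of Snhg3 was not tested.

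**Figure D5:**
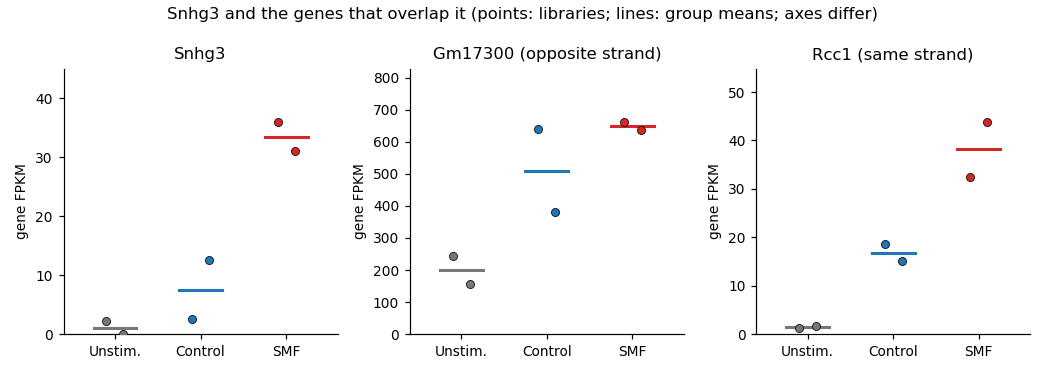
Gene FPKM of Snhg3, Gm17300 and Rcc1 in the 3 groups (linear axes from 0 with separate scales); points are libraries and lines are means of 2. Gm17300 lies between 156 and 663 FPKM where Snhg3 lies between 0 and 36.0.

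Other members have neighbours too. Slc3a2, which codes for the heavy chain of amino acid transporters, starts 106 bases from Snhg1 on the opposite strand, and was 16.5 and 23.1 FPKM in Unstimulated, 10.7 and 29.9 in Control, and 58.9 and 60.4 in SMF. As with Snhg1, Unstimulated and Control overlapped and SMF was above both. Slc3a2 differed by 1.67 on the log2 scale in SMF against Control (SE 0.51; limma, Benjamini-Hochberg adjusted p = 0.174). Mcmdc2 shares 11.1% of the exonic bases of Snhg6 on the opposite strand and was at most 4.81 FPKM. Zbtb37 overlaps the Gas5 locus on the opposite strand with no shared exonic base and was 1.47 to 4.598 FPKM.

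The snoRNA genes themselves were listed at low and uneven values. Of the 30, 16 were under 10 FPKM in all 6 libraries. At 0 were 11 and 9 in Unstimulated, 18 and 7 in Control, and 2 and 4 in SMF; the deep SMF libraries had the fewest and the shallow Control replicate 1 the most. Gm22357 in Gas5, shown above, was 172 and 168 FPKM in Unstimulated, 291 and 179 in Control, and 287 and 184 in SMF, with Control and SMF overlapping. Gm22680 in Snhg1 was 127 and 102 in Unstimulated, 30.1 and 2.07 in Control, and 0.50 and 0.29 in SMF, lowest in SMF, where its host was highest. Snora73b in Snhg3 was 5.84 and 0, 0 and 17.2, and 71.97 and 31.1 FPKM. Genes of 60 to 205 bases are shorter than many sequenced fragments, so these values are descriptions and not levels of mature snoRNA.

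Each member was set against the mean profile of the other 7 over the 6 libraries, on log2(FPKM + 1) centred per gene. Pearson's r ran from 0.58 for Snhg12 and 0.71 for Snhg8 to 0.92 for Gas5; the points share libraries and groups, and r is a description. Among the 6521 genes that averaged 10 FPKM or more, the 5 most like the members' mean profile were Ddx1, Ppp1ccb, Nudcd2, Nudc and Dpp8, with r of 0.996 to 0.998 over 6 libraries. Ddx1, an RNA helicase, was 16.1 and 10.2 FPKM in Unstimulated, 34.8 and 33.4 in Control, and 80.6 and 76.5 in SMF.

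Other genes of the pathway were described from lists, to be read against the 12.3%, 12.5% and 22.4% of all genes called higher in the 3 comparisons. Of 14 further noncoding genes, taken as snoRNA hosts except Mir17hg, which hosts microRNAs, 10 were matched and 7 tested, and 3 were called higher in Control than in Unstimulated, Epb41l4aos, Snhg4 and Zfas1, with a median of 0.22. In SMF against Control all 7 were positive with a median of 1.45, and 3 were called higher; against Unstimulated 4 were. Mir17hg was one of the called in both, at 1.54 and 1.77. Snhg4 was 0 and 0.61 FPKM in Unstimulated, 2.68 and 4.69 in Control, and 27.4 and 33.5 in SMF, with no overlap. Zfas1 was 42.8 and 12.2, 112 and 48.6, and 154 and 188 FPKM. Snhg10, listed at 0 in both Control libraries and 2.86 and 0 in Unstimulated, was 6.00 and 4.52 in SMF.

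Of 9 core proteins of snoRNA particles, 4 were called higher in Control than in Unstimulated, 2 in SMF than in Control and 7 in SMF than in Unstimulated, with medians of 0.90, 0.86 and 1.60. Gar1, Nhp2 and Nop10 of H/ACA particles and Nop58 of C/D particles were the 4 in Control. Gar1 was 7.58 and 15.6 FPKM in Unstimulated, 63.4 and 50.9 in Control, and 82.9 and 83.7 in SMF. Of 12 assembly factors, 4 were called higher in Control and 4 in SMF than in Unstimulated, with medians of 0.20 and 1.63. In SMF against Control 0 of the 12 were called by limma, with 1 under an unadjusted 0.05 and a median of 0.73. In Control, the chaperone subunit Ruvbl2 led them with a log2 fold change of 2.37, followed by Naf1 at 2.19 and Nolc1 at 2.12.

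Of 21 genes of nonsense-mediated decay, which limits spliced hosts, 4 were called higher and 2 lower in Control than in Unstimulated, with a median of 0.28. In SMF 6 were higher than in Control and 10 than in Unstimulated. Smg9 (log2 fold change -2.27 in Control against Unstimulated) was one of the 2 lower, and Dcp1a (2.14) and Magohb (1.95) were among the higher. A list of 16 genes held messages with a pyrimidine tract outside ribosomal proteins, and their binder Larp1. Of the 16, 1 was called higher in Control (6.25%, under the share of all genes) and 5 in SMF than in Control. In SMF 11 were higher than in Unstimulated, Larp1 among them. The 1 higher in Control was Npm1, at 230 and 246 FPKM in Unstimulated, 653 and 762 in Control, and 1260 and 1308 in SMF. Of the nuclear noncoding RNAs 2 were tested, and Malat1 was lower in Control by a log2 fold change of -2.26. All 6 proliferation genes, among them Mki67, Top2a and Ccnb1, were called higher in Control and in SMF than in Unstimulated, and 2 in SMF than in Control.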

How the data were processed

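RNA of 6 libraries was made with a stranded total RNA kit and sequenced; per the labels and the submitters' processing notes, reads were trimmed with Trimmomatic 0.36, aligned with HISAT2 (version not given in the sources used here) and quantified by the authors with StringTie 1.3.5, stranded option fr, on GRCm38 with GENCODE M19. The deposited files give FPKM, TPM and coverage for 137767 transcripts; another deposited table has 3 columns that match no sample and was not used. No read counts were recovered, so a 0 is a listing at 0.

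Gene FPKM was summed over transcripts per gene identifier; gene types came from GENCODE M21 (54409 identifiers matched, 37 not). The 14991 of 54446 genes that averaged 1 FPKM or more were fitted on log2(FPKM + 1), which understates changes of low genes, with limma 3.58.1 in R 4.3.3 (3 groups together, variance trend, 3 residual degrees of freedom, two-sided, Benjamini-Hochberg adjustment). All 8 members passed this filter. Gene tables and figures were made in Python 3.11.15 with pandas 2.3.3 and matplotlib 3.10.9. The fit was tested on simulated data. The members and lists were chosen with earlier results of these data known. All members were named, and so were transcripts with at least 10% of a member's mean FPKM and the 5 genes most like the members. From each list up to 4 genes were named by the size of the log2 fold change in Control versus Unstimulated. Other transcripts, list genes, neighbours and snoRNAs given by value were chosen after their values were seen. Alternatives are given in the closing section. The summed level of the B cell marker list is not reported here.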

Additional observations from a re-analysis of the deposited data

Results flagged for a closer look

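By the limma test of SMF against Control, which compares stimulation with and without the field, 4 members passed the call: the log2 fold change was 1.04 for Snhg1, 2.31 for Snhg3, 1.12 for Snhg8 and 1.66 for Snhg15, each higher in 2 of 2 SMF libraries than in both Control libraries. Snhg15 was called in all 20 alternatives, Snhg8 in 15, Snhg1 in 11 and Snhg3 in 9. Under each of the 3 rescalings Snhg1, Snhg3 and Snhg8 were not called, and with 1 of 6 libraries left out in turn Snhg1 was called in 2 fits, Snhg3 in 1 and Snhg8 in 4. None had a Benjamini-Hochberg adjusted p under 0.05. The SMF libraries carry another date in their headers than all others, so field and date cannot be told apart.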

How the results depend on the processing

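Over 24 log2 fold changes (8 members in 3 comparisons) and 20 alternatives, 405 of 480 values kept their direction and their side of the call, 55 lost the call, 6 gained it and 14 changed sign. Limits are 2 libraries a group, no read counts and dates that separate SMF from the rest. In Control against Unstimulated the sign changed for Snhg8 at one median for every library (0.025) and without Control replicate 2 (0.017), for Snhg15 without transcripts covering a snoRNA (-0.11), and for Snhg1 without Unstimulated replicate 2 (-0.22) and without retained-intron transcripts (-0.31). In SMF against Control it changed for Snhg12 at one median (-0.10), at one protein-coding sum (-0.078), under quantile normalization (-0.072), without transcripts covering a snoRNA (-1.63), without Control replicate 2 (-0.33) and without SMF replicate 2 (-0.63), for Snhg6 without Control replicate 1 (-0.11), and for Snhg5 without Control replicate 2 (-0.11) and without retained-intron transcripts (-1.56). With 1 library left out these 5 ranged from -0.14 to 0.017 (Snhg8) and -0.22 to 0.66 (Snhg1) in the first comparison, and from -0.63 to 1.10 (Snhg12), -0.11 to 0.97 (Snhg6) and -0.11 to 1.49 (Snhg5) in the second. The causes were not tested. Leaving out transcripts annotated as retained introns was added after seeing the data. The number of members called in SMF against Control, 4, became 1 under each of the 3 rescalings, and in Control against Unstimulated, 3, it became 1 when only the 2 groups compared were fitted, which leaves fewer libraries. With 1 library left out it ranged from 1 to 2 in Control against Unstimulated, from 1 to 3 in SMF against Control and from 3 to 7 in SMF against Unstimulated, and the number of all genes called in SMF against Control from 1367 to 3379. With the replicate number as a block, 3, 4 and 7 members were called and no call on a member changed. Both SMF libraries share a date, so this block does not stand for date in the comparisons with SMF. Deviations of same-numbered libraries correlated at 0.0963, 0.0301 and 0.0206, all under 0.1, although Unstimulated and Control libraries of one number share a date. Weighting by coverage times length gave snoRNA-holding shares of 53.7% in Unstimulated, 30.0% in Control and 33.5% in SMF, and counting a snoRNA touched by 1 base gave 49.3%, 28.2% and 35.5%, against 42.2%, 23.5% and 21.9%. The order of levels was the same in TPM.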
